A study of Mus musculus with 24 samples.

Results

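The receptor chains and Janus kinases (JAKs) through which β cells receive IL-1β, IFNγ and TNFα were followed in mRNA-seq libraries of MIN6 cells, a line of mouse β cells from an insulinoma. The 8 genes were taken by symbol from the 17696 genes of the count table, and all 8 were listed: Il1r1 and Il1rap (IL-1 receptor), Ifngr1 and Ifngr2 (IFNγ receptor), Tnfrsf1a and Tnfrsf1b (TNF receptors) and Jak1 and Jak2. The 24 libraries fell into 6 groups of 4. Scr cells carried a lentiviral vector with a scrambled sequence, ZIP cells the same vector backbone with an antisense to miR-146a-5p, and OE cells a different lentiviral vector that overexpresses miR-146a-5p. Scr+Cy, ZIP+Cy and OE+Cy were the same lines kept for 24 h in IL-1β at 5 ng/ml, TNFα at 10 ng/ml and IFNγ at 100 ng/ml. All cells had been selected with puromycin and expanded from single clones that were screened for miR-146a-5p, so line and clone cannot be told apart, and in OE neither can the vector. Mature miR-146a-5p is not captured by such libraries, and its level in each line is not given here. Between 26657792 and 37168232 reads were assigned to genes per library. The labels do not say whether replicates were separate cultures, so p values measure the spread between these libraries.

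IL-1β binds IL-1R1, and the accessory chain IL-1RAP then completes a receptor that signals through MyD88 and IRAK kinases to NF-κB. IFNγ binds IFNGR1, which pairs with the signaling chain IFNGR2. JAK1 sits on the former and JAK2 on the latter, and together they pass the signal on to the nucleus. TNFα acts on TNFR1 (Tnfrsf1a), which is present on most cells and can lead to NF-κB or to cell death, and on TNFR2 (Tnfrsf1b), which is found mainly on immune and endothelial cells. Combinations of these cytokines are widely used to model the inflammatory stress of β cells in type 1 diabetes. In bulk libraries, fewer cells of a type and less RNA per cell cannot be told apart.

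The lines were built around mmu-miR-146a-5p, whose sequence is shown because complementarity to its seed is the first thing to look for in the 8 transcripts. It is given 5′ to 3′ from RefSeq (GRCm38.p6, chr11:43374435-43374456, minus strand), with the seed, bases 2 to 8, in capitals.
mmu-miR-146a-5p: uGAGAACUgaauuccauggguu
The complement of this seed, AGTTCTC, was searched on the transcript strand of the longest annotated 3′ UTR of each gene (GENCODE M21, GRCm38). All 8 UTRs, from 490 bases in Tnfrsf1a to 3864 in Il1r1, held 0 such sites. Of the 15446 listed genes with an annotated 3′ UTR, 12% held the site. These letters alone were searched, so sites of other kinds or in other transcripts were not examined.

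Promoters are shown for Ifngr2, Tnfrsf1a and Jak2, the 3 members that rose with cytokines in all 3 lines with no overlap between treated and untreated libraries, as did 6.24% of all genes. Each runs 5′ to 3′ from 250 bases before to 50 after the RefSeq start site (GRCm38.p6), with any matched motif in capitals. The motifs were GAS (TTCNNNGAA), an element of IFNγ-responsive genes, ISRE, bound by interferon regulatory factors, and κB, the NF-κB element, each on both strands.
Ifngr2 (chr16:91546809-91547108, plus strand): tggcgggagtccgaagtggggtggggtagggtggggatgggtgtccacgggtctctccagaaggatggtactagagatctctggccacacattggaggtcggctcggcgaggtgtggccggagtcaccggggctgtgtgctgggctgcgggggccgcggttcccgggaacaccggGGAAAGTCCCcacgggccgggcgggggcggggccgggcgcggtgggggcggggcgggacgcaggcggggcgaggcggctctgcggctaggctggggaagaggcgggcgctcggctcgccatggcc
Tnfrsf1a (chr6:125349473-125349772, plus strand): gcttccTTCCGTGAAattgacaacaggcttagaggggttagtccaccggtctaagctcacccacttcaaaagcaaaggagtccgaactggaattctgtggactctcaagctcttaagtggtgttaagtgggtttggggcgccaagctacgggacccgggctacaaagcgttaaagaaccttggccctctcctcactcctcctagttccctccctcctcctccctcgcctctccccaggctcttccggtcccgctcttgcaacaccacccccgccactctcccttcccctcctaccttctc
Jak2 (chr19:29251553-29251852, plus strand): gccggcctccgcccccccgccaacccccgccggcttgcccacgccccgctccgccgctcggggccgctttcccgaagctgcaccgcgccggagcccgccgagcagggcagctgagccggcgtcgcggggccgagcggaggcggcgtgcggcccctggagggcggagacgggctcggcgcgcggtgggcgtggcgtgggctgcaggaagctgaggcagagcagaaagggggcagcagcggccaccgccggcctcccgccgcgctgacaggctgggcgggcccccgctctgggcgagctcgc
The Ifngr2 window held a κB match, GGAAAGTCCC, that begins 75 bases before the start site, and the Tnfrsf1a window a GAS match, TTCCGTGAA, far upstream in the window. The Jak2 window held none of the 3 motifs. Of the other members, Tnfrsf1b had a GAS match (TTCCCGGAA) and an ISRE match (TTTCGCTTTC), Il1rap an ISRE match (GAAAAAGAAA) that begins after the start site, and the second of 2 Il1r1 promoters a κB match (GGAATGCCCC). The first Il1r1 promoter and those of Ifngr1 and Jak1 held none. Of 32851 promoters of this length, 8.3% held GAS, 3.44% ISRE and 8.46% κB, and a match is a description of letters, not of binding.

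Levels are given as CPM, the reads of a gene scaled by TMM to a common library total, and as CPM per kb of annotated exon wherever genes are compared with each other. Adjusted p values (Benjamini-Hochberg, all 17696 genes) come from edgeR's quasi-likelihood test, with 6 group means fitted to all 24 libraries. A gene was called, and is said to have risen or fallen, at an adjusted p value under 0.05. Log2 fold changes carry the standard error (SE) of that fit.

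In untreated Scr cells the members spanned a very wide range. Per kb, Il1r1 was the most abundant, at 108 ± 7.76 CPM per kb (SD, n = 4), and ranked 379 among 17035 genes with a known exon length. Jak1 (42.4 ± 1.45 CPM per kb, rank 1429) and Tnfrsf1a (39.9 ± 2.69, rank 1534) came next, and their libraries overlapped. Ifngr1 (14.5 ± 0.796 CPM per kb) and Jak2 (11.8 ± 0.955) were intermediate, Ifngr2 (4.66 ± 0.401) and Il1rap (2.53 ± 0.135) were low, and Tnfrsf1b was at the limit of detection (0.0365 ± 0.0431, rank 14381). The IL-1 and IFNγ receptors thus each had a more abundant ligand-binding chain, Il1r1 and Ifngr1, and of the TNF receptors only Tnfrsf1a was expressed at more than trace level in these Scr libraries.

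**Figure D1:**
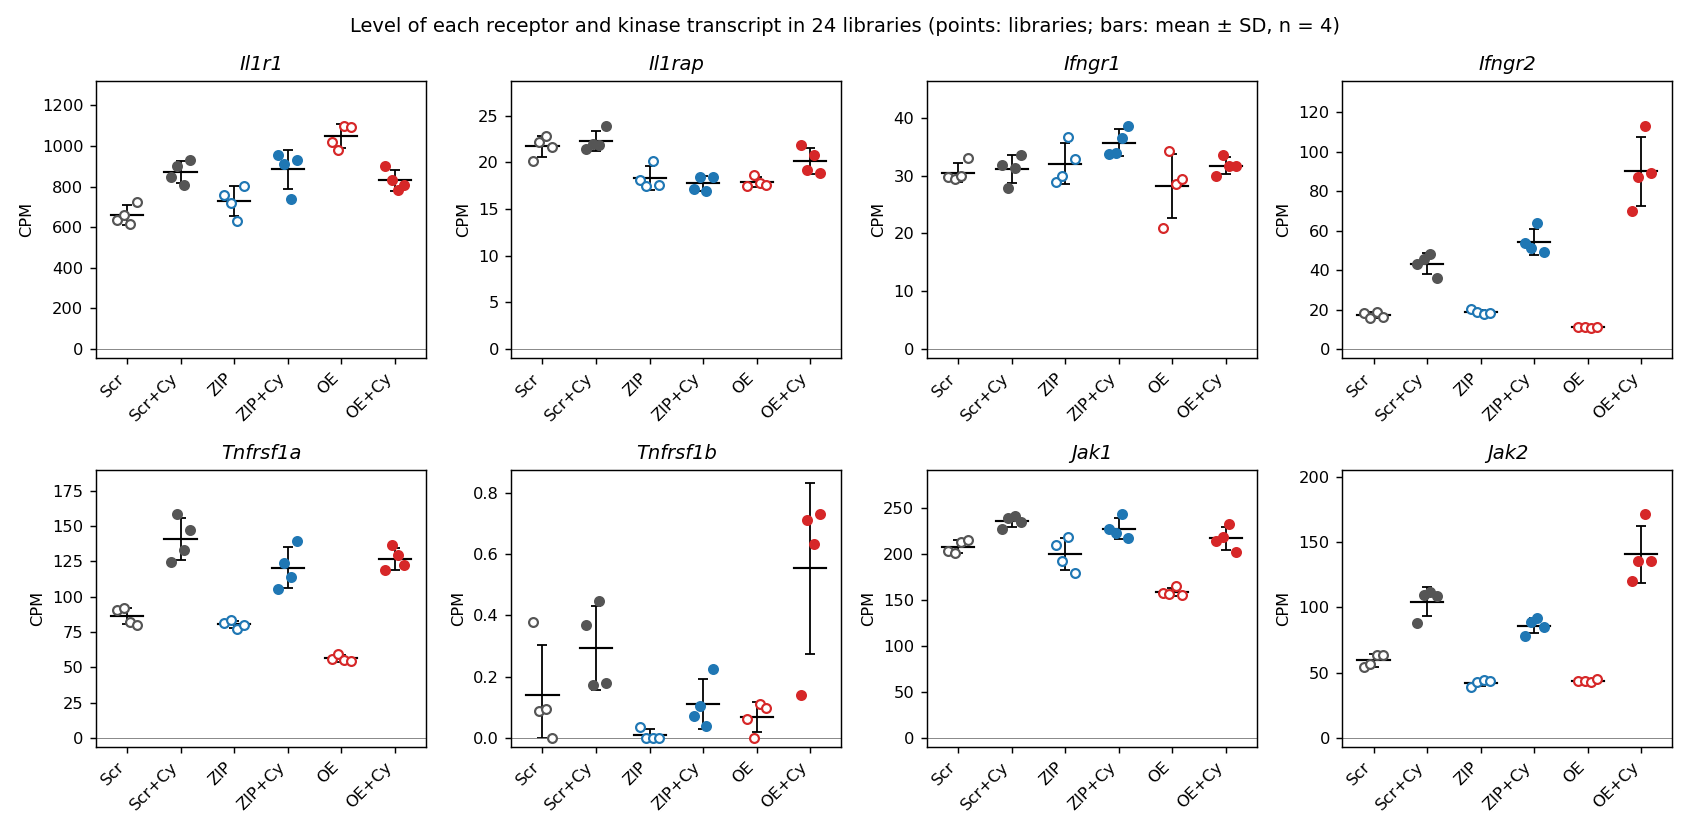
Level of each of the 8 transcripts (CPM after TMM scaling, linear axes that differ between panels) in the 24 libraries, by group. Open points are untreated and filled points cytokine-treated libraries, the horizontal bars are means and the error bars SD (n = 4), drawn no lower than 0. Ifngr2 stands between 70.2 and 113 CPM in OE+Cy and between 10.8 and 11.4 CPM in OE, whereas Ifngr1 overlaps between most groups.

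The first question was whether cytokines change the transcripts of their own receptors. In control cells (Scr+Cy versus Scr), 5 of 8 members rose and 0 fell, whereas 17.8% of all genes were called, 10.5% as higher and 7.33% as lower. These were Ifngr2, Jak2, Tnfrsf1a, Il1r1 and Jak1, in order of fold change, from 2.50-fold for Ifngr2 to 1.13-fold for Jak1. In ZIP+Cy versus ZIP the same 5 members rose and 0 fell, with 26.4% of all genes called (13.6% higher, 12.8% lower). In OE+Cy versus OE, 6 members rose and 1 fell, with 44.6% of all genes called (23% higher, 21.5% lower). The median log2 fold change of the 8 members was 0.55 in Scr, 0.43 in ZIP and 0.81 in OE, beside medians of all genes of 0, −0.01 and 0.02. These 3 comparisons share no libraries. When a call instead required a 1.5-fold change and an unadjusted p value under 0.05, 3 members were called in Scr+Cy (10.6% of all genes), 3 in ZIP+Cy (12.5%) and 4 in OE+Cy (21%).

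**Figure D2:**
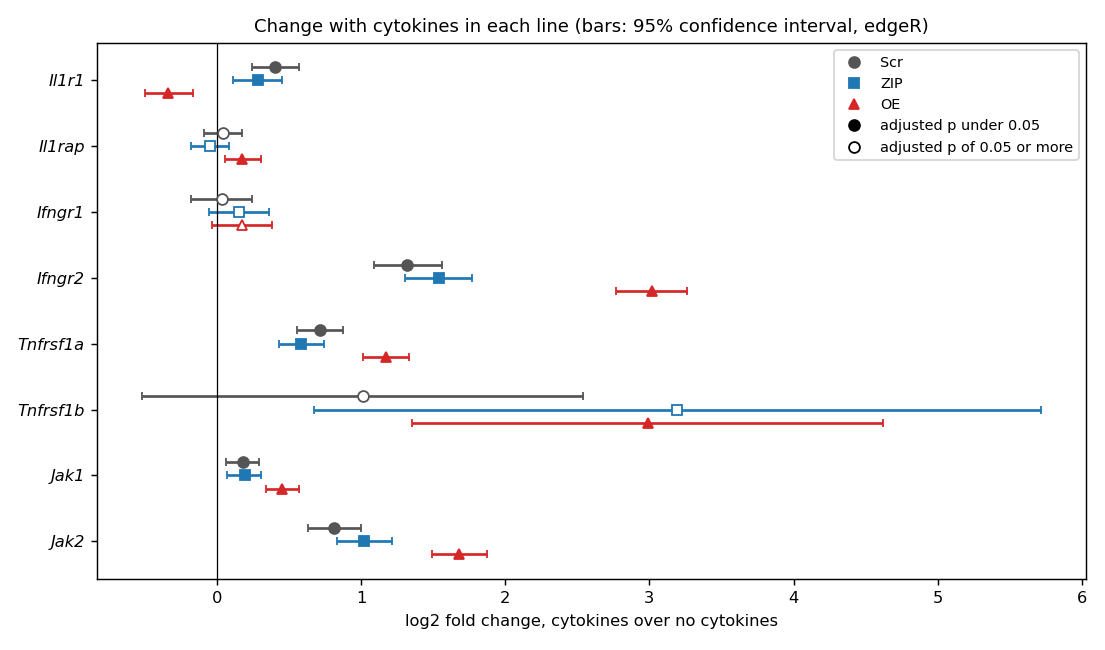
Log2 fold change of the 8 transcripts with cytokines in Scr, ZIP and OE cells (edgeR, horizontal axis; bars are 95% confidence intervals). Filled symbols have an adjusted p value under 0.05. Ifngr2, Tnfrsf1a and Jak2 lie right of 0 in all 3 lines, and Il1r1 is to the right in Scr and ZIP but at −0.34 in OE.

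Ifngr2, the signaling chain of the IFNγ receptor (mm10, chr16:91547059-91564007, plus strand), had the largest rise among the called members in Scr and ZIP, and in OE rose about as much as the sparse Tnfrsf1b (log2 fold changes of 3.02 and 2.99). The 4 Scr libraries held 18.4, 15.9, 18.7 and 16.1 CPM, and the 4 Scr+Cy libraries 43.4, 45.7, 48.0 and 35.8 CPM. ZIP held 20.3, 18.9, 17.6 and 18.1 CPM, and ZIP+Cy 53.5, 51.0, 63.7 and 49.2 CPM. OE held 11.4, 11.2, 10.8 and 11.1 CPM, and OE+Cy 70.2, 87.3, 113 and 89.5 CPM. Treated and untreated libraries did not overlap in any line, and OE had both the lowest untreated and the highest treated values. The log2 fold change was 1.32 (SE 0.113, edgeR adjusted p = 2.24e-09) in Scr, 1.54 (SE 0.114, adjusted p = 1.48e-10) in ZIP and 3.02 (SE 0.119, adjusted p = 6.07e-16) in OE.

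Ifngr1, the ligand-binding chain (chr10:19591949-19610227, plus strand), was called in 0 of the 9 comparisons made here. Its means ran from 28.3 ± 5.52 CPM in OE to 35.7 ± 2.34 CPM in ZIP+Cy, and the lowest single library, OE replicate 1 at 20.9 CPM, was in the group with the widest spread. The 95% confidence interval of its log2 fold change with cytokines was −0.18 to 0.24 in Scr, −0.06 to 0.36 in ZIP and −0.04 to 0.38 in OE, and changes within these bounds are not excluded. Without OE replicate 2, at 34.3 CPM the highest of OE, the rise in OE+Cy was called (log2 fold change 0.28, adjusted p = 0.0246, and 0.0246 to 0.706 over all alternatives).

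The ratio of both chains, which does not depend on scaling between libraries, therefore moved with Ifngr2. Per kb, there were 3.11 Ifngr1 for each Ifngr2 in Scr, 3 in ZIP and 4.39 in OE (geometric means of 4 libraries). After cytokines it stood at 1.27 for Scr+Cy, 1.15 for ZIP+Cy and 0.627 for OE+Cy. On the log2 scale the Scr libraries ranged from 1.49 to 1.85 and the OE+Cy libraries from −1.03 to −0.41. OE+Cy was the only group in which Ifngr2 exceeded Ifngr1, and it did so in all 4 libraries.

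Jak2, the kinase that docks on IFNGR2 (chr19:29251803-29313092, plus strand), followed Ifngr2 at a smaller amplitude. It was at 54.0, 56.7, 63.4 and 63.4 CPM in Scr and at 87.6, 110, 112 and 109 CPM in Scr+Cy. ZIP held 38.9, 42.4, 44.5 and 43.6 CPM, and ZIP+Cy 77.9, 88.8, 92.1 and 85.2 CPM. OE held 43.7, 43.4, 43.1 and 45.4 CPM, and OE+Cy 120, 135, 171 and 135 CPM. Every treated library was above every untreated library of its line, and Scr+Cy replicate 1 stood below the rest of its group. The log2 fold change was 0.81 (SE 0.0888, edgeR adjusted p = 1.57e-07) in Scr, 1.02 (SE 0.0903, adjusted p = 3.6e-09) in ZIP and 1.68 (SE 0.0905, adjusted p = 2.1e-13) in OE.

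Jak1, the kinase on IFNGR1 (chr4:101151974-101265282, minus strand), rose by less. Its mean was 207.8 ± 7.13 CPM in Scr against 235.2 ± 6.28 CPM after cytokines, 199.5 ± 17.3 in ZIP and 227.4 ± 11.04 in ZIP+Cy, and 158.4 ± 4.68 in OE and 216.8 ± 12.7 in OE+Cy. The libraries overlapped in ZIP but not in Scr or OE. Of all genes, 21.2% had no overlap between treated and untreated libraries in Scr and 40.2% in OE. The log2 fold change of 0.18 in Scr (SE 0.0557, edgeR adjusted p = 0.027) and of 0.19 in ZIP (SE 0.0558, adjusted p = 0.0137) each lost its call without single libraries, with adjusted p values up to 0.0791 and 0.0693 over all alternatives. The libraries concerned were Scr replicates 1 and 2 and Scr+Cy replicates 2 and 3, and ZIP replicates 2 and 4 and ZIP+Cy replicate 3. In OE the log2 fold change was 0.45 (SE 0.0559, adjusted p = 4.11e-07) and was kept in each alternative at an adjusted p value under 0.05. Jak1 overlaps another listed gene, Raver2, so reads could have been divided between them where strand was not used, which the sources used here do not state.

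Per kb, Jak1 exceeded Jak2 in every library, by 3.60 times in Scr, 4.82 in ZIP and 3.71 in OE. After cytokines it did so by 2.32 times (Scr+Cy), 2.71 times (ZIP+Cy) and 1.6 times (OE+Cy). The log2 ratio in OE+Cy (0.48 to 0.87) lay below that of every library of the other groups.

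**Figure D3:**
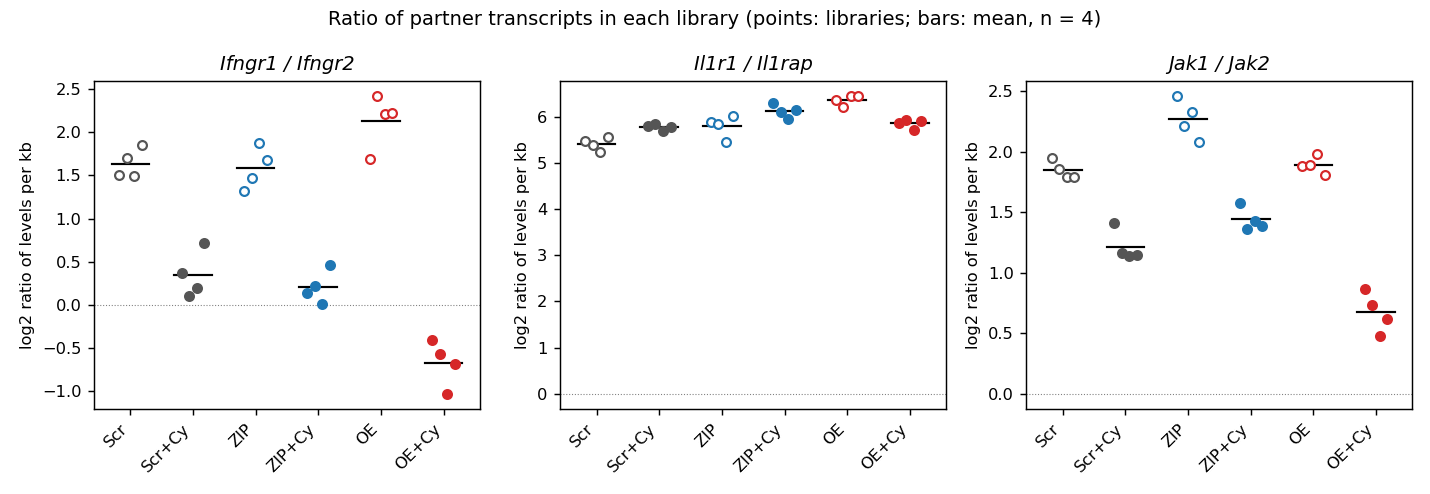
Log2 ratio of partner transcripts per kb of exon within each library (vertical axes, which differ between panels), by group. Open points are untreated and filled points treated libraries, bars are means of 4 libraries and the dotted line marks equal levels. Ifngr1 over Ifngr2 falls below the dotted line in all 4 OE+Cy libraries, and Il1r1 over Il1rap is highest in OE, at a mean log2 ratio of 6.36.

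Tnfrsf1a, encoding TNFR1 (chr6:125349723-125362483, plus strand), was at 90.5, 91.5, 82.2 and 80.1 CPM in Scr and at 125, 158, 133 and 147 CPM in Scr+Cy. ZIP held 81.1, 83.2, 77.3 and 79.8 CPM, and ZIP+Cy 105, 124, 114 and 139 CPM. OE held 55.8, 59.6, 55.2 and 54.3 CPM, and OE+Cy 119, 137, 129 and 122 CPM. The groups did not overlap within any line, and OE, the lowest line before treatment, reached the range of the others. The log2 fold change was 0.71 (SE 0.0763, edgeR adjusted p = 1.27e-07) in Scr, 0.58 (SE 0.0766, adjusted p = 2.37e-06) in ZIP and 1.17 (SE 0.0775, adjusted p = 9.67e-12) in OE.

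Tnfrsf1b, encoding TNFR2 (chr4:145212368-145246870, minus strand), rested on very few reads. Scr libraries held 14, 3, 3 and 0 reads, ZIP libraries 1, 0, 0 and 0, and OE libraries 2, 0, 4 and 3. With cytokines Scr+Cy libraries had 12, 5, 13 and 6 reads, ZIP+Cy libraries 2, 3, 1 and 7, and OE+Cy libraries 4, 21, 20 and 24. Untreated and treated libraries overlapped in Scr. In OE the highest untreated and the lowest treated library both held 4 reads and were apart only after scaling, at 0.1104 and 0.139 CPM, and the log2 fold change was 2.99 (SE 0.791, edgeR adjusted p = 0.00324). From reads summed over each group, the ratio was 8.52 for OE+Cy over OE, with a 95% interval of 4.24 to 19.4 that covers counting error only. In ZIP the 13 reads of ZIP+Cy stood against 1 of ZIP, a ratio of 13.2 (1.99 to 563), with an adjusted p value of 0.0556, and in Scr the adjusted p value was 0.401. The ZIP comparison was called by DESeq2 (adjusted p = 0.0323), and over all alternatives its adjusted p values ran from 0.0323 to 0.181. It was also called without ZIP replicate 1, which holds the only ZIP read (adjusted p = 0.045, fitted log2 fold change 4.86 in place of 3.19, neither of them a bound). In Scr, leaving out Scr replicate 1 moved the log2 fold change from 1.01 to 2.2 (adjusted p = 0.0774, and 0.0774 to 0.631 over all alternatives). Leukocyte markers summed to between 0.651 and 4.62 CPM over all libraries, with 5 of 8 listed and Ptprc (CD45) at no more than 0.422 CPM, and endothelial markers, with 2 of 4 listed, to 0.0929 to 0.216 CPM in Scr and 0.758 to 0.893 CPM in Scr+Cy. The endothelial sum was 0.182 to 0.695 CPM in ZIP and 0.663 to 2.18 CPM in ZIP+Cy, and 0.655 to 1.54 CPM in OE and 1.73 to 4.62 CPM in OE+Cy. Their part in the Tnfrsf1b result was not tested.

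Il1r1, the IL-1β-binding chain (chr1:40225080-40316177, plus strand), was the only member called in opposite directions in different lines. Scr libraries held 637.6, 661.7, 615.8 and 725.6 CPM and Scr+Cy libraries 847, 902.9, 807.6 and 928.7 CPM. ZIP libraries held 760.5, 716.9, 629.9 and 804.8 CPM, and ZIP+Cy 955, 908.5, 740.9 and 931.7 CPM. OE libraries held 1021, 979.2, 1099 and 1093 CPM, and OE+Cy 900.1, 831.1, 783.5 and 806.6 CPM. All Scr+Cy libraries were above all Scr libraries, ZIP and ZIP+Cy overlapped through ZIP+Cy replicate 3, and all OE+Cy libraries were below all OE libraries. Treated and untreated libraries were likewise apart, in either direction, for 21.2% of all genes in Scr and 40.2% in OE. The log2 fold change was 0.40 in Scr (SE 0.08, edgeR adjusted p = 0.000708), 0.28 in ZIP (SE 0.08, adjusted p = 0.0108) and −0.34 in OE (SE 0.08, adjusted p = 0.00129). The ZIP call was lost without ZIP replicate 3 (adjusted p = 0.0578, and 0.00117 to 0.0578 over all alternatives).

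Il1rap, the accessory chain (chr16:26581705-26730128, plus strand), hardly moved with cytokines. Scr held 21.7 ± 1.17 CPM and Scr+Cy 22.3 ± 1.09 CPM. It was at 18.4 ± 1.26 in ZIP and 17.8 ± 0.814 in ZIP+Cy, and at 17.9 ± 0.527 in OE and 20.2 ± 1.40 in OE+Cy (SD, n = 4 each). The rise in OE, of 0.17 on the log2 scale (SE 0.0621, edgeR adjusted p = 0.0251), was lost without OE replicates 1, 3 or 4 or OE+Cy replicates 1 or 3, with adjusted p values up to 0.0979 over all alternatives. The 95% interval in Scr was −0.09 to 0.17. Il1r1 outnumbered Il1rap in all libraries, per kb by 42.7 times in Scr, 55.7 in ZIP and 82.4 in OE, and after cytokines by 54.9 (Scr+Cy), 69.8 (ZIP+Cy) and 57.9 times (OE+Cy).

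The next question was whether the responses themselves differed between lines, which was tested as an interaction. Between OE and Scr, 5 of 8 members differed, 4 with a larger and 1 with a smaller value in OE, beside 20% of all genes (9.64% larger, 10.3% smaller). At a 1.5-fold difference and an unadjusted p value under 0.05 there were 3 (12.1% of all genes). The difference in log2 fold change was 1.69 for Ifngr2 (SE 0.161, edgeR adjusted p = 2.39e-07), 0.86 for Jak2 (SE 0.125, adjusted p = 4.37e-05), 0.46 for Tnfrsf1a (SE 0.108, adjusted p = 0.00345) and 0.27 for Jak1 (SE 0.0789, adjusted p = 0.0153). For Il1r1 it was −0.74 (SE 0.113, adjusted p = 8.29e-05). That of Jak1 lost its call without OE+Cy replicate 3 (adjusted p = 0.0605, and 0.00211 to 0.0605 over all alternatives). For Ifngr1 and Il1rap, the 95% intervals of the difference were −0.16 to 0.43 and −0.05 to 0.31, and Tnfrsf1b, at 1.98 with an interval of −0.27 to 4.22, was too sparse to place.

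Between ZIP and Scr, 0 of 8 members differed in response, beside 0.0565% of all genes (0.0509% larger, 0.00565% smaller). That share is 10 genes, against 41 by DESeq2 and 45 with the replicate block. At a 1.5-fold difference and an unadjusted p value under 0.05 there were also 0 (3.29% of all genes). 0 members had an unadjusted p value under 0.05 in edgeR, and DESeq2 also called 0. The intervals of the difference were −0.11 to 0.54 for Ifngr2, −0.05 to 0.47 for Jak2, −0.35 to 0.10 for Tnfrsf1a and −0.35 to 0.11 for Il1r1, which leaves room for differences of that size.

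The lines were then compared with Scr at rest. All 4 comparisons of lines, and both interactions, share Scr or Scr+Cy libraries. In OE versus Scr, 1 member was higher and 5 were lower, beside 50.1% of all genes called, of which 24.5% were higher and 25.6% lower. Il1r1 was higher, by 0.67 on the log2 scale (SE 0.0802, edgeR adjusted p = 1.93e-07), or 1.59-fold, with all OE libraries above all Scr libraries. The genes that were lower had log2 fold changes of −0.63 for Ifngr2 (SE 0.118, adjusted p = 8.4e-05), −0.61 for Tnfrsf1a (SE 0.0771, adjusted p = 3.63e-07), −0.44 for Jak2 (SE 0.0896, adjusted p = 0.000254), −0.39 for Jak1 (SE 0.0559, adjusted p = 2.42e-06) and −0.28 for Il1rap (SE 0.0617, adjusted p = 0.000553). The OE and Scr libraries of these 6 genes did not overlap, which held for 46.5% of all genes. The median of the 8 members was −0.42, beside 0 for all genes. At 1.5-fold and an unadjusted p value under 0.05, 3 members were called (25.7% of all genes).

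In OE+Cy versus Scr+Cy, 2 members were higher and 0 lower, beside 53.4% of all genes called (26% higher, 27.4% lower), and 1 at 1.5-fold and an unadjusted p value under 0.05 (28.5% of all genes). Ifngr2 was 2.09-fold higher (log2 fold change 1.06, SE 0.109, edgeR adjusted p = 1.29e-08) and Jak2 1.35-fold higher (0.43, SE 0.0875, adjusted p = 0.000218), and both were lower in OE than in Scr before treatment. Il1r1, Tnfrsf1a and Jak1 were at −0.07, −0.15 and −0.12, with 95% intervals of −0.24 to 0.10, −0.31 to 0.01 and −0.23 to 0. Without Scr+Cy replicate 1, the fall of Tnfrsf1a was called (−0.21, adjusted p = 0.0305, and 0.0305 to 0.342 over all alternatives). So were that of Il1rap without OE+Cy replicate 1 (−0.19, adjusted p = 0.0198, and 0.0198 to 0.182) and that of Jak1 without OE+Cy replicate 3 (−0.14, adjusted p = 0.0432, and 0.027 to 0.285).

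**Figure D4:**
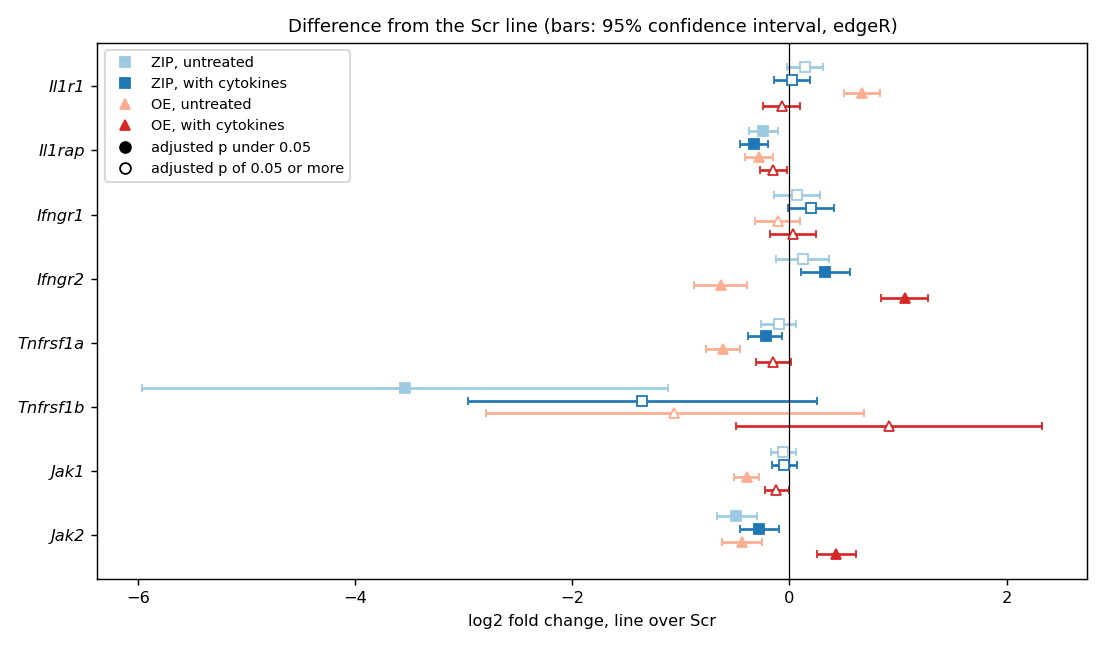
Log2 fold change of the 8 transcripts in ZIP and OE over Scr, without and with cytokines (edgeR, horizontal axis; bars are 95% confidence intervals). Filled symbols have an adjusted p value under 0.05. Ifngr2 in OE moves from −0.63 untreated to 1.06 with cytokines, and Jak2 from −0.44 to 0.43.

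In ZIP versus Scr, 0 members were higher and 3 lower, beside 28.3% of all genes called (13.5% higher, 14.8% lower), and 1 at 1.5-fold and an unadjusted p value under 0.05 (14.9% of all genes). Jak2 fell by 0.49 (SE 0.0901, edgeR adjusted p = 0.00018), with no overlap between its ZIP and Scr libraries, as in 27.2% of all genes. Il1rap was at −0.24 (SE 0.062, adjusted p = 0.00434), with overlap. Tnfrsf1b, with 1 read in ZIP and 20 in Scr, was called at an adjusted p value of 0.0249, and the ratio of Scr over ZIP was 17.2 (2.74 to 711, counting error only). Of those 20 reads, 14 came from Scr replicate 1, and without this library the call was lost (adjusted p = 0.173, and 0.00825 to 0.173 over all alternatives). It was also lost without ZIP replicates 2, 3 or 4.

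In ZIP+Cy versus Scr+Cy, 1 member was higher and 3 lower, beside 28.1% of all genes called (12.9% higher, 15.1% lower), and 0 at 1.5-fold and an unadjusted p value under 0.05 (15.8% of all genes). Il1rap fell by 0.33 (SE 0.0623, edgeR adjusted p = 0.00023), with no overlap, and kept its call without any single library. Ifngr2 was 0.33 higher on the log2 scale (SE 0.109, adjusted p = 0.025), Jak2 lower (log2 fold change −0.28, SE 0.088, adjusted p = 0.0199) and Tnfrsf1a at −0.22 (SE 0.0759, adjusted p = 0.0293). These last 3 calls depended on single libraries. Without Scr+Cy replicate 2 or 4 or ZIP+Cy replicate 1 or 3, only 2, 1, 2 and 2 of the 4 calls remained. Jak2 also lost its call without Scr+Cy replicate 3 (adjusted p = 0.0635, and 0.00108 to 0.0939 over all alternatives), and Tnfrsf1a without ZIP+Cy replicate 2 (adjusted p = 0.0588, and 0.00377 to 0.162). For Ifngr1, all ZIP+Cy libraries lay above all Scr+Cy libraries, with a log2 fold change of 0.2 and an edgeR adjusted p value of 0.162. Such a lack of overlap between ZIP+Cy and Scr+Cy, seen also for Il1rap, held for 27.6% of all genes.

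Each line came from single clones, so the genes that flank each member on its chromosome were examined for shifts in common. Jak2 had 12 neighbors at a mean of at least 1 CPM among the 10 listed genes on either side, within 2.05 Mb of chromosome 19. The shares of all genes given beside counts of neighbors include genes below 1 CPM, so the sets compared differ in level. In ZIP versus Scr, 11 of these 12 fell and 0 rose (14.8% of all genes lower), with a median log2 fold change of −0.51 beside −0.49 for Jak2. In ZIP+Cy versus Scr+Cy, 12 of 12 fell (15.1% of all genes lower), with a median of −0.52 beside −0.28 for Jak2. In OE versus Scr, 9 fell and 2 rose (25.6% of all genes lower, 24.5% higher), with a median of −0.30 beside −0.44 for Jak2, and in OE+Cy versus Scr+Cy the median was −0.26 while Jak2 was at 0.43. With cytokines, 3 of the 12 neighbors rose and 0 fell in Scr, 4 rose and 1 fell in ZIP, and 6 rose and 2 fell in OE, beside 10.5%, 13.6% and 23% of all genes higher. Their medians were 0.16, 0.06 and 0.12, beside 0.81, 1.02 and 1.68 for Jak2. The part of this region in the lower Jak2 level of ZIP and OE was not tested.

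Among the other members, Ifngr2, with 14 neighbors, had medians between 0.01 and 0.05 in each of the 4 comparisons of lines, beside values of −0.63 and 1.06 of its own in OE and OE+Cy. Il1r1, with 13 neighbors, had a median of 0.28 in OE versus Scr (7 higher, 4 lower, beside 24.5% and 25.6% of all genes) beside its own 0.67. That median was 0.16 in OE+Cy versus Scr+Cy (7 higher, 4 lower), with Il1r1 at −0.07. In ZIP versus Scr it was −0.19 (0 higher, 6 lower, beside 13.5% and 14.8% of all genes), with Il1r1 at 0.14. For ZIP+Cy versus Scr+Cy it was −0.23 (1 higher, 6 lower, beside 12.9% and 15.1%), with Il1r1 at 0.02. In OE+Cy versus OE, 9 of these 13 neighbors rose and 0 fell (23% of all genes higher), with a median of 0.26, whereas Il1r1 fell by 0.34. Jak1, with 13 neighbors, had a median of −0.25 in OE versus Scr (1 higher, 4 lower) beside its own −0.39, and one of −0.52 in OE+Cy versus Scr+Cy (3 higher, 8 lower, beside 26% and 27.4% of all genes) beside its own −0.12. Tnfrsf1b, with 7 neighbors, had a median of −0.49 in OE versus Scr (0 higher, 6 lower) beside its own −1.06, which was not called. In OE+Cy versus Scr+Cy that median was −0.45 (1 higher, 6 lower), whereas Tnfrsf1b was at 0.92, also not called. In OE versus Scr the median was −0.07 for the 13 neighbors of Tnfrsf1a, beside its own −0.61. It was 0.05 for the 13 of Il1rap and 0.03 for the 14 of Ifngr1.

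Other genes of the IL-1 receptor family and its proximal signaling were counted from a list of 22, of which 20 were listed in the table. In Scr+Cy versus Scr, 4 rose and 0 fell (10.5% and 7.33% of all genes), and in OE versus Scr 8 rose and 3 fell (24.5% and 25.6% of all genes). In OE+Cy versus OE, 9 rose, 2 fell and 9 were not called (23% of all genes higher, 21.5% lower). The list median was 1.32 beside 0.02 for all genes, and it takes in the genes that were not called. In OE+Cy versus Scr+Cy 13 were higher and 3 lower (26% and 27.4%), with a list median of 0.95 beside 0.01 for all genes. Il1r2, the decoy receptor that binds IL-1 without signaling, rose from 0.857 ± 0.0996 CPM in Scr to 2.21 ± 0.600 CPM in Scr+Cy and was at 2.87 ± 0.469 CPM in OE and 6.22 ± 1.5 CPM in OE+Cy. Il18rap, the accessory chain of the IL-18 receptor, went from 0.635 ± 0.268 CPM in Scr to 3.75 ± 0.655 CPM in Scr+Cy (log2 fold change 2.56, edgeR adjusted p = 3.6e-08). In OE versus Scr, Sigirr, an inhibitory receptor of the family, was higher (log2 fold change 3.47, adjusted p = 5.38e-08, from 5 to 9 reads per Scr library), and Tollip, an adaptor that restrains IRAK1, fell by 0.44 (adjusted p = 2.1e-07).

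Of 24 listed components of the TNF receptor complex, 17 rose and 1 fell in Scr+Cy versus Scr (10.5% of all genes higher), 19 rose and 2 fell in ZIP+Cy versus ZIP (13.6%), and 18 rose and 2 fell in OE+Cy versus OE (23%). Birc3, the ubiquitin ligase cIAP2, rose from 2.10 ± 0.313 CPM in Scr to 24.1 ± 5.34 CPM in Scr+Cy, and from 3.13 ± 0.181 CPM in OE to 73.7 ± 13.1 CPM in OE+Cy. Tnfaip3, the NF-κB inhibitor A20, rose with log2 fold changes of 2.44 in Scr, 2.35 in ZIP and 2.86 in OE (edgeR adjusted p = 1.08e-06, 1.52e-06 and 3.41e-08). Madd, an adaptor on TNFR1, fell with cytokines in Scr, by 0.24 (adjusted p = 0.0401). Before treatment, Casp8, the initiator caspase of death receptors, was higher in OE (27.0 ± 2.18 CPM) and lower in ZIP (6.14 ± 1.01 CPM) than in Scr (13 ± 1.26 CPM), with adjusted p values of 6.49e-10 and 5.65e-09. Traf5, an adaptor of TNF receptors, was lower in both OE (log2 fold change −0.81, adjusted p = 5.56e-06) and ZIP (−0.84, adjusted p = 9.35e-06).

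Of 23 further genes of the IFNγ pathway, all listed, 12 rose and 0 fell in Scr+Cy versus Scr (10.5% of all genes higher), 14 rose and 1 fell in ZIP+Cy versus ZIP (13.6%), and 14 rose and 2 fell in OE+Cy versus OE (23%). Irf1, a transcription factor induced early by IFNγ, rose from 28.3 ± 1.90 CPM to 412 ± 31.6 CPM in Scr+Cy and from 20.6 ± 1.59 CPM in OE to 730 ± 81.5 CPM in OE+Cy. Its response was larger in OE than in Scr, by 1.28 on the log2 scale (SE 0.135, edgeR adjusted p = 1.09e-06). In OE versus Scr, 3 of the 23 rose and 9 fell, beside 24.5% of all genes higher and 25.6% lower. Ptpn6, the phosphatase SHP-1, was at 24.5 ± 1.33 CPM in OE and 2.54 ± 0.699 CPM in Scr, and Sh2b2, an adaptor of JAK kinases, at 0.345 ± 0.241 CPM in OE and 3.32 ± 0.168 CPM in Scr.

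Of 29 listed JAK family members and receptor chains of other cytokines that signal through JAKs, 10 rose and 1 fell in Scr+Cy versus Scr, beside 10.5% of all genes higher and 7.33% lower. Il13ra1, a chain of the IL-13 receptor, rose from 0.906 ± 0.139 CPM in Scr to 6.06 ± 1.69 CPM in Scr+Cy, and stood at 32.5 ± 6.51 CPM in OE and 86.7 ± 16.2 CPM in OE+Cy. Il12rb1, a chain of the IL-12 and IL-23 receptors, had 3 reads over the Scr libraries and 155 over the Scr+Cy libraries, a ratio of 56.7 (19.1 to 278, counting error only). Of those 3 Scr reads, 2 came from a single library, so the size of this ratio depends on it. Ghr, the growth hormone receptor, fell by 0.24 (edgeR adjusted p = 0.0268). In OE versus Scr, 5 of the 29 rose and 11 fell, beside 24.5% of all genes higher and 25.6% lower, with a list median of −0.31 beside 0 for all genes, and Il20rb, a chain of the IL-20 receptor, was at 15.2 ± 0.735 CPM in Scr but only 1.1 ± 0.151 CPM in OE.

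Of 23 listed genes of the TNF receptor superfamily other than the members, 5 rose and 1 fell in Scr+Cy versus Scr (17.8% of all genes called), 10 rose and 2 fell in OE+Cy versus OE (44.6%), and 5 rose and 7 fell in OE versus Scr (50.1%). Cd40, the receptor of CD40 ligand, went from 0.813 ± 0.213 CPM in Scr to 7.48 ± 1.42 CPM in Scr+Cy, and from 0.992 ± 0.121 CPM in OE to 52.3 ± 14.5 CPM in OE+Cy. Tnfrsf14, the herpesvirus entry mediator, rose by 2.80 on the log2 scale in Scr+Cy (edgeR adjusted p = 1.15e-10), and Tnfrsf21, death receptor 6, fell by 0.54 (adjusted p = 0.0275). In OE versus Scr, Eda2r, a receptor of ectodysplasin A2, was higher (2.79 ± 0.984 CPM against 0 to 4 reads per Scr library), and Tnfrsf10b, the mouse TRAIL receptor, was lower (0.452 ± 0.143 CPM against 2.17 ± 0.350 CPM). Neither shift was particular to OE. In ZIP versus Scr, Eda2r was also higher (1.4 ± 0.564 CPM, edgeR adjusted p = 1.19e-06) and Tnfrsf10b also lower (0.514 ± 0.185 CPM, adjusted p = 4.42e-07).

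Of the ligand genes, Ifng was not among the listed genes. Tnf had 0 reads in all 4 Scr libraries, and Scr+Cy held 0.815 ± 0.376 CPM, at least 36.6-fold higher when 3 reads over the Scr group are taken as the limit. Over the group, ZIP+Cy had 472 reads against 6 in ZIP, and OE+Cy 6455 reads (52.2 ± 10.8 CPM) against 2 in OE. The OE+Cy cells thus carried far more Tnf transcript than Scr+Cy cells (log2 fold change 6, SE 0.315, edgeR adjusted p = 1.09e-12). Scr cells held Il1b at 2.55 ± 0.326 CPM, ZIP cells at 4.06 ± 0.636 and OE cells at 0.586 ± 0.238, and it rose with cytokines in ZIP (log2 fold change 0.57, adjusted p = 0.0188) and OE (1.75, adjusted p = 3.97e-07). In Scr its log2 fold change was 0.28 (adjusted p = 0.342). Il1a, at 0 to 12 reads per library, was called in 0 of these comparisons.

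Over the 24 libraries, the log2 CPM values of Ifngr2 and Jak2 ran together (Pearson's r = 0.92), as did those of Ifngr2 and Tnfrsf1a (0.87), Tnfrsf1a and Jak2 (0.86) and Tnfrsf1a and Jak1 (0.86). Il1r1 had r between −0.41 and 0.07 with each of the other 7 members. Among 12670 genes at a mean of at least 1 CPM, the closest to Ifngr2 were Bid (r = 0.985), Rassf4 (0.984) and Znfx1 (0.981), and to Jak2 Ifit2 (0.977), Zbtb5 (0.973) and H2-Aa (0.972). The closest to Tnfrsf1a were Tmem106a (0.971), Tubb3 (0.967) and Jak3 (0.962), and to Jak1 Sft2d2 (0.944), Tut4 (0.94) and Fryl (0.938). Likeness was weaker for Il1r1 (Nfxl1, 0.894, Dpp3, 0.877, and Tfg, 0.866), Il1rap (Sec24b, 0.894, Slk, 0.879, and Ccdc130, 0.875), Tnfrsf1b (Zc3h7b, 0.855, Trim14, 0.841, and Spata5l1, 0.84) and Ifngr1 (Sv2b, 0.752, Mfap1b, 0.739, and Akip1, 0.737). The libraries of a group share their treatment and line, so these values describe 6 groups more than 24 independent points.

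All 11 β cell markers, such as Ins2 and Pdx1, were at or above 1 CPM in every library. They summed to between 20200 and 26400 CPM in Scr and between 41900 and 45600 CPM in OE. The most abundant markers weigh most in this sum, and the markers did not all peak in the same group. The highest library was in OE for Ins1, Ins2, Slc30a8 and Pcsk1, and in OE+Cy for Iapp and Neurod1. It was in ZIP for Pdx1, Nkx6-1 and Slc2a2, in ZIP+Cy for G6pc2 and in Scr for Mafa. After cytokines the sum was 21000 to 23000 CPM in Scr+Cy and 26600 to 34800 CPM in OE+Cy. In ZIP it was 29900 to 32300 CPM and in ZIP+Cy 26700 to 30000 CPM, above every Scr and Scr+Cy library. Its part in the differences between lines and in the cytokine responses was not tested. Of 3 listed acinar and duct cell markers, Krt19 alone reached 1 CPM. With it the sum was 12.5 to 17.4 CPM in OE and 16.0 to 24.2 CPM in OE+Cy, and at most 0.21 CPM in the other groups, while Cela1 and Cftr stayed at or below 0.21 and 0.0947 CPM in every library. Markers of other islet cells summed to 246 to 369 CPM in Scr and 134 to 190 CPM in Scr+Cy, to 101 to 305 CPM in ZIP and 78.4 to 218 CPM in ZIP+Cy, and to 46 to 56 CPM in OE and 9.09 to 34.7 CPM in OE+Cy. Gcg, at up to 369 CPM, made up most of the Scr sum, whereas Ppy and Sst had their highest levels in OE (10.9 and 1.93 CPM) and Ghrl did not exceed 0.158 CPM, and their part was not tested either. Connective tissue markers summed to 14.0, 34.1 and 40.8 CPM in Scr replicate 1, ZIP replicate 1 and Scr+Cy replicate 1 and to at most 7.77 CPM elsewhere. Without these 3 libraries, an alternative chosen after the data were seen, 4 members rose in Scr+Cy (Jak1 was lost, adjusted p = 0.0679, and 0.00518 to 0.0791 over all alternatives) and 6 in ZIP+Cy (Tnfrsf1b was gained, adjusted p = 0.0376, and 0.0323 to 0.181). In the comparisons of lines, Tnfrsf1b lost its call in ZIP versus Scr (adjusted p = 0.124, and 0.00825 to 0.173) and Tnfrsf1a gained a call as lower in OE+Cy versus Scr+Cy (adjusted p = 0.0351, and 0.0305 to 0.342).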

How the data were processed

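Per the labels and the study's methods, poly(A) libraries of total RNA were sequenced paired-end, aligned with STAR to mm10 and quantified against RefSeq transcripts with Partek Flow, and genes with few reads were removed. The versions given differ: the labels list STAR 2.7.8a and Partek 11.0.24.0204, and the study's methods give earlier releases. The authors deposited a table of raw estimated counts, in which 22.9% of non-zero values were more than 0.01 from a whole number, and a separate table of normalized signal, which is these counts divided by a factor per library, to within a relative deviation of 0.0091 at values over 100. Only the estimated counts were used, rounded to whole numbers, for all 17696 genes. How strand was used is not given in the sources used here.

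Groups came from the sample titles. edgeR 4.0.16 (R 4.3.3) was used with TMM scaling, 6 group means, glmQLFit and glmQLFTest, and Benjamini-Hochberg adjustment over all genes. An SE is the log2 fold change divided by the square root of F. The code was tested on simulated data. Exon lengths and 3′ UTRs came from GENCODE M21, and promoters and the microRNA from RefSeq. Intervals of ratios of reads are exact (Clopper-Pearson). The members and lists were chosen with earlier results of these data known. Besides the members, the genes named are the 2 with the highest and the 1 with the lowest log2 fold change of each list in Scr+Cy versus Scr, the highest and the lowest in OE versus Scr (called, at least 1 CPM in either group), the ligands and the 3 genes most alike each member. A gene that this rule names is not reported here.

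Same-numbered libraries deviated together over 12670 genes, with every correlation over 0.1, in 5 of 7 comparisons: 0.413 to 0.626 in Scr+Cy versus Scr, 0.261 to 0.397 in ZIP+Cy versus ZIP, 0.162 to 0.455 in OE+Cy versus OE, 0.141 to 0.634 in ZIP versus Scr and 0.191 to 0.37 in ZIP+Cy versus Scr+Cy. The sample titles give same-numbered libraries of all 6 groups a shared code. What it marks (a day, passage or batch) is not given in the sources used here, so the pairing was judged by this check. The main test, with its 6 group means, did not use the pairing, and only the replicate block below took it into account. Alternatives were DESeq2 1.42.0, its size factors in edgeR, filterByExpr, only the groups compared, a replicate block, a fold change of at least 1.5 with an unadjusted p value under 0.05, and leaving out single libraries.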

Additional observations from a re-analysis of the deposited data

Results flagged for a closer look

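Of 48 groups of 4 libraries (8 members in 6 groups), 3 had a library far from the other 3, where chance alone gives about 1 in 20. Jak2 was at 87.58 CPM in Scr+Cy replicate 1 and at 108.6 to 111.6 CPM in the rest of that group, and this library also held connective tissue markers at a sum of 40.8 CPM. Tnfrsf1b was at 0.139 CPM (4 reads) in OE+Cy replicate 1 and at 0.6316 to 0.7291 CPM in the others. Tnfrsf1b was at 0.03659 CPM (1 read) in ZIP replicate 1 and at 0 in the others, a pattern in which any single read stands apart by construction, so that it says nothing of this library.

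The cytokine response of 5 members differed between OE and Scr cells by a test of the difference itself. On the log2 scale, the response of OE minus that of Scr was 1.69 for Ifngr2, 0.86 for Jak2, 0.46 for Tnfrsf1a, 0.27 for Jak1 and −0.74 for Il1r1.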

How the results depend on the processing

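When calls required both an unadjusted p value under 0.05 and a change of 1.5-fold or more, fewer members were called: 3 in Scr+Cy versus Scr, 3 in ZIP+Cy versus ZIP, 4 in OE+Cy versus OE, 1 in ZIP versus Scr, 3 in OE versus Scr, 0 in ZIP+Cy versus Scr+Cy, 1 in OE+Cy versus Scr+Cy and 3 in the difference between the responses of OE and Scr. In ZIP+Cy versus ZIP this rule lost Il1r1, Tnfrsf1a and Jak1 and gained Tnfrsf1b. Leaving out single libraries gave 4 to 5 members in Scr+Cy versus Scr, 4 to 6 in ZIP+Cy versus ZIP, 6 to 8 in OE+Cy versus OE, 2 to 3 in ZIP versus Scr, 6 in OE versus Scr, 1 to 4 in ZIP+Cy versus Scr+Cy, 2 to 3 in OE+Cy versus Scr+Cy, 0 in the difference for ZIP and 4 to 5 in that for OE. Over all alternatives and members, 0 called values changed sign, and of 1208 values 55 lost and 11 gained a call. With the replicate block, the counts of members were 5, 5, 7, 3, 6, 4 and 3 in the order of the 7 comparisons above, and 0 and 5 in the differences. The block changed a single call, that of Jak1 in OE+Cy versus Scr+Cy, whose libraries were not paired by number (correlations of 0.001 to 0.165), nor were those of OE versus Scr (−0.129 to 0.295). It moved the count over all genes by over 1.5 times only in the difference for ZIP, from 10 to 45. Fitting only the groups compared ended the calls of Jak1 in ZIP+Cy (adjusted p = 0.0693, and 0.00221 to 0.0693 over all alternatives), Il1rap in OE+Cy (0.0673, and 0.016 to 0.0979), Tnfrsf1b in ZIP (0.0647, and 0.00825 to 0.173) and Tnfrsf1a in ZIP+Cy versus Scr+Cy (0.115, and 0.00377 to 0.162), and gained Tnfrsf1b in ZIP+Cy (0.0479, and 0.0323 to 0.181). The causes were not tested. All 8 members passed filterByExpr. Depth limits Tnfrsf1b, at 0 to 24 reads per library.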
